A study of Homo sapiens with 17 samples.

Results

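Clone c8 was derived from IMR32, an established human line of MYCN-amplified neuroblastoma, and carries an inducible construct for NOTCH3IC, the intracellular domain of the receptor NOTCH3. Doxycycline in the medium switched the construct on, and total RNA was hybridised to 1 array at each of 8 times, labelled 0, 4, 8, 12, 24, 48, 72 and 96 without a unit. Of the 17 arrays of the series, these 8 were taken by clone and time label. The 3 arrays of times 48, 72 and 96 (late) were compared with the 3 of times 0, 4 and 8 (start), and times 12 and 24 (mid) gave the course between them. The other 9 arrays come from clone c6, a second clone with the same construct and treatment, sampled also at time 120. The start group is not an untreated control, since its arrays at times 4 and 8 follow the addition of doxycycline. After time 0 no array comes from cells left uninduced, so the effects of NOTCH3IC, of doxycycline itself and of time in culture cannot be told apart in these comparisons. Arrays of adjacent times serve as the replicates of a group; no label states that they were separate cultures, and p-values measure only the spread between these arrays.

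Notch receptors are cut after a ligand such as JAG1 on a neighbouring cell binds them. The released intracellular domain enters the nucleus, joins the DNA-binding protein RBPJ and a Mastermind coactivator, and switches on target genes, of which the HES and HEY repressors are the best known. NOTCH3 is known above all from vascular smooth muscle cells and pericytes, the contractile cells that wrap blood vessels. Neuroblastoma arises from the sympathetic lineage, whose cells make noradrenaline.

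Values are array signals on a linear scale in which each array had a trimmed mean of 100.01. Log2 changes are differences of log2(signal + 16), given ± the standard error of a limma fit, with Benjamini-Hochberg adjustment over 13675 genes and a threshold of 0.05. The median signal of the 8 arrays of clone c8 lay between 15.4 and 18.3, and their log2 values correlated at 0.964 to 0.990 with each other. Of 11 markers of neuroblastoma cells, 10 were bright enough to test. Their summed signal was 12234 to 13165 on the start arrays and 9823 to 11395 on the late arrays, and MYCN alone gave 4238 to 4915 on the 8 arrays. TH, the first enzyme of noradrenaline synthesis and a defining marker, was below the intensity filter (0.500 to 2.40). Fibroblast markers were uneven at the start: 6 of them summed to 701 to 923 on the start arrays and 891 to 1241 late. Most of the start sum was PDGFRA, a growth factor receptor, at 488 to 708. Others were dim, among them LUM and COL1A2 with start means of 4.90 and 10.4. By contrast, 5 endothelial markers summed to 47.0 to 63.1 at the start and 42.1 to 72.8 late, 4 immune markers to 13.8 to 35.5 and 30.0 to 44.6, and 3 Schwann cell and glial markers to 3.50 to 18.3 and 8.80 to 18.4.

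NOTCH3 itself rose in clone c8. Its brighter probe set read 218 at time 0, 275 at time 4, 440 at time 8, 780 at time 12, 1028 at time 24 and 794, 703 and 836 at times 48, 72 and 96. The 3 late arrays all lay above the 3 start arrays, with a log2 change of 1.33 ± 0.20 (limma adjusted p = 0.00139). The other NOTCH3 probe set was dim, with a change of -0.31, and with the mean of both the change was 0.51 and did not pass. The sources used here do not give the stretch of NOTCH3 mRNA that each probe set covers, so signal from the construct and from the cell's own gene cannot be told apart.

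Some Notch-responsive genes had reached their height by times 4 to 12, and late against start, where the start includes times 4 and 8, did not call them. HES1, a repressor switched on directly by Notch, had a signal of 14.3 at time 0, 356 at time 4, 326 at time 8, 279 at time 12, 137 at time 24 and 129, 143 and 151 at the late times. HEY1, its relative, went from 71.4 at time 0 to 2259 and 3174 at times 4 and 8, was highest at time 12 with 5491, and stood at 3218, 2923 and 3184 late. Both genes were thus lowest at time 0, and HES1 was lower late than at times 4 and 8. The chemokine receptor CXCR4 had the same shape, with 223 at time 0, 2421 and 2718 at times 4 and 8, 2976 at time 12 and 1154 to 1684 late. CDKN1C, an inhibitor of cyclin-dependent kinases, went from 197 at time 0 to 1155 and 1810, was highest at time 12 with 2240, and read 589 to 854 late.

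For these 4 genes the choice of the start decided the result. Late against start gave log2 changes of -0.00 ± 0.70 for HES1 (limma adjusted p = 0.9995), 1.86 ± 0.97 for HEY1 (0.353), 0.29 ± 0.68 for CXCR4 (0.884) and -0.05 ± 0.57 for CDKN1C (0.980). With time 0 alone as the start, the change was 2.37 for HES1 and 1.80 for CDKN1C, neither past the threshold, and 5.16 for HEY1 and 2.58 for CXCR4, both past it. Without the time 0 array, HES1 at -1.19 and CDKN1C at -0.98 passed as lower late, and CXCR4 was at -0.86 without passing. Across the 8 arrays the genes most alike to HEY1 were KAZN (Pearson r = 0.981), CYRIA (0.975), RAB11B-AS1 (0.969), ASTN2 (0.966) and PARP10 (0.962), each lowest at time 0; the arrays are 1 time course, so no test is given.

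**Figure D1:**
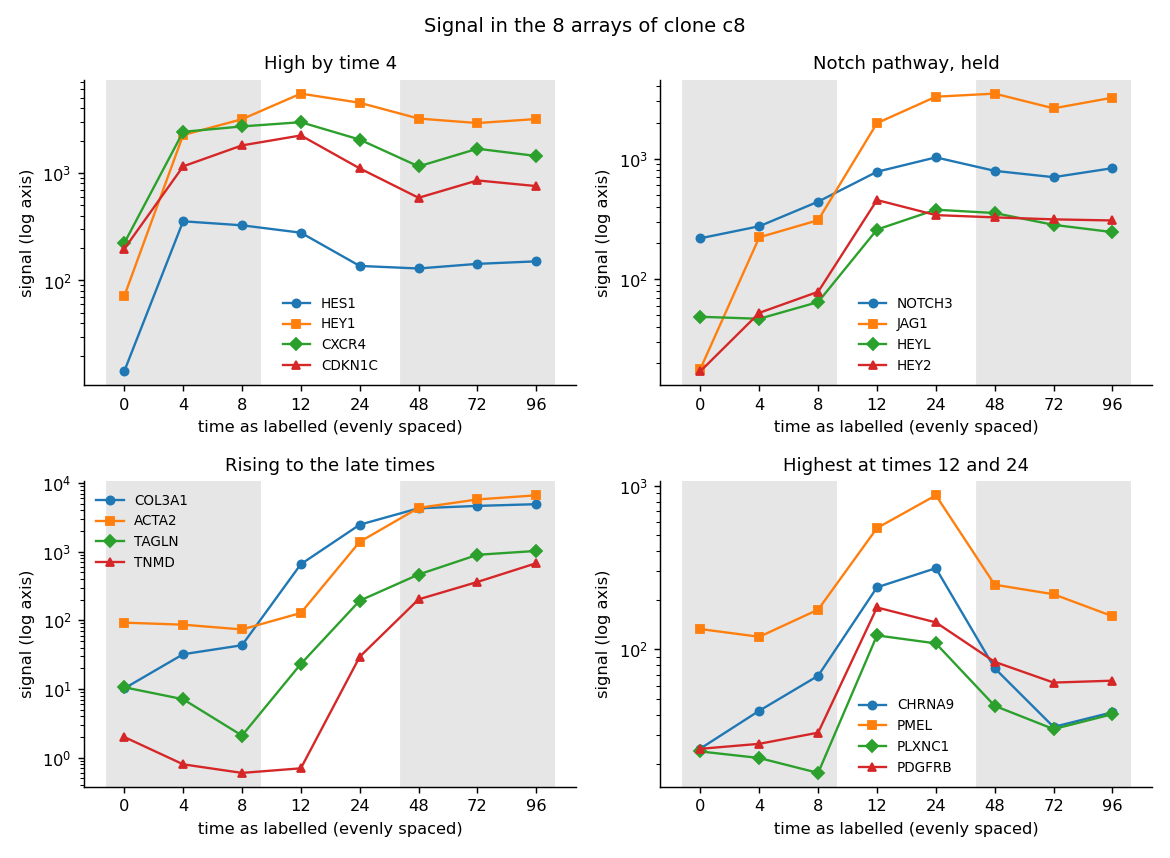
Signal of 16 genes on the 8 arrays of clone c8, on a log axis, against the labelled times at even spacing. Shading marks the start (0, 4, 8) and late (48, 72, 96) arrays. HES1, HEY1, CXCR4 and CDKN1C were high from time 4, ACTA2, TAGLN and TNMD were highest at time 96, and CHRNA9, PMEL, PLXNC1 and PDGFRB were highest at time 12 or 24.

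Other Notch genes had their largest signals from time 12 on and were called late against start. JAG1, the ligand that Notch signalling itself can induce, read 17.9, 222 and 309 at the start times, 1981 and 3285 at times 12 and 24, and 3486, 2630 and 3225 late, a rise of 22.5-fold (log2 4.49 ± 0.61, limma adjusted p = 0.000696). Without the array of time 0 its log2 change was 3.48, and without that of time 8 it was 5.11. HEYL, a HEY repressor found in vascular smooth muscle, read 48.5, 46.7 and 64.3 at the start and 354, 282 and 246 late (log2 2.16 ± 0.16, adjusted p = 4.65e-06). HEY2, a further HEY repressor, went from 17.1, 52.3 and 78.3 to 326, 314 and 307 (log2 2.47 ± 0.29). Every late array lay above every start array for JAG1, HEYL and HEY2. HES4, a HES repressor absent from mice, rose by 1.56 ± 0.23 from 11.7, 36.9 and 38.3 to 106, 111 and 116. MYC, a growth-promoting transcription factor and a Notch target in leukaemia, was at 1.60 and 2.50 at times 0 and 4, 35.1 at time 8, 300 and 340 at times 12 and 24 and 148 to 167 late (log2 2.74 ± 0.32, adjusted p = 0.000251).

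Of 18 listed Notch targets 14 were tested, and 5 rose, 1 fell and 8 did not pass late against start, beside 4.08% of all genes that rose and 1.05% that fell. The median log2 change of the list was 0.50 against 0.02 over all genes. DTX1, a regulator of the Notch pathway, rose by 0.57 ± 0.13, and CDKN1A, a cyclin-dependent kinase inhibitor, fell by 0.55 ± 0.13 (limma adjusted p = 0.0314). The call of CDKN1A was lost without the array of time 0 (-0.48), 4 (-0.51), 48 (-0.48) or 96 (-0.55), and that of DTX1 without the array of time 0 (0.55), 4 (0.54), 48 (0.56) or 96 (0.56). NRARP, a feedback inhibitor of Notch, had a change of 0.55 ± 0.16 that did not pass (adjusted p = 0.0743), but passed without the array of time 72 (0.69). Of 31 tested receptors, ligands and cofactors, 3 rose, 2 fell and 26 did not pass. DLK1, a noncanonical ligand of the neural crest, was among the fallen (105, 137 and 109 at the start, 48.1, 50.3 and 39.6 late).

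The core sequence bound by RBPJ was searched in promoter windows of RefSeq genes (GRCh38.p14), from 250 bases before to 50 after each start, as TGGGAA on either strand. It occurred in 24.0% of 35116 windows and in 6 of 15 windows of the 14 Notch targets in the table, those of GPR183, HES1, HES4, HES5, HEY2 and HEYL. The windows of HES1, HES4 and HEYL are shown because these Notch targets are described above by their signals. Each is the stretch from 110 to 51 bases before the start, 5′ to 3′ on the gene's strand, with the core in capitals. They lie at chr3:194136038-194136097 (plus strand), chr1:1000148-1000207 (minus) and chr1:39639694-39639753 (minus).
HES1: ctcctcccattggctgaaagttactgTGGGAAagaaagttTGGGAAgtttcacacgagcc
HES4: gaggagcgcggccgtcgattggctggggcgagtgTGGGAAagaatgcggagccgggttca
HEYL: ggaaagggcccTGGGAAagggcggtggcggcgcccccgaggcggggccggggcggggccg
These stretches show part of the windows. Over the whole window HES1, HES5, HEY2 and HEYL hold 2 cores each and HES4 and GPR183 hold 1. A match describes the sequence and is no evidence of binding.

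By the late times clone c8 had a broad rise of genes of contraction, matrix and adhesion, and a smaller fall of sympathetic genes. Of 13675 genes tested, 701 (5.13%) differed late against start by limma at an adjusted p under 0.05. Of these, 558 were higher and 143 lower, and 279 of the higher and 14 of the lower changed 2-fold or more. Without the array of time 4, or without that of time 96, the count was 447. All 3 late arrays lay above all 3 start arrays for 557 of the 558 risen genes and below them for 143 of the 143 fallen genes, which the call on the same arrays nearly fixes; over all genes tested the shares were 13.4% and 9.35%.

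**Figure D2:**
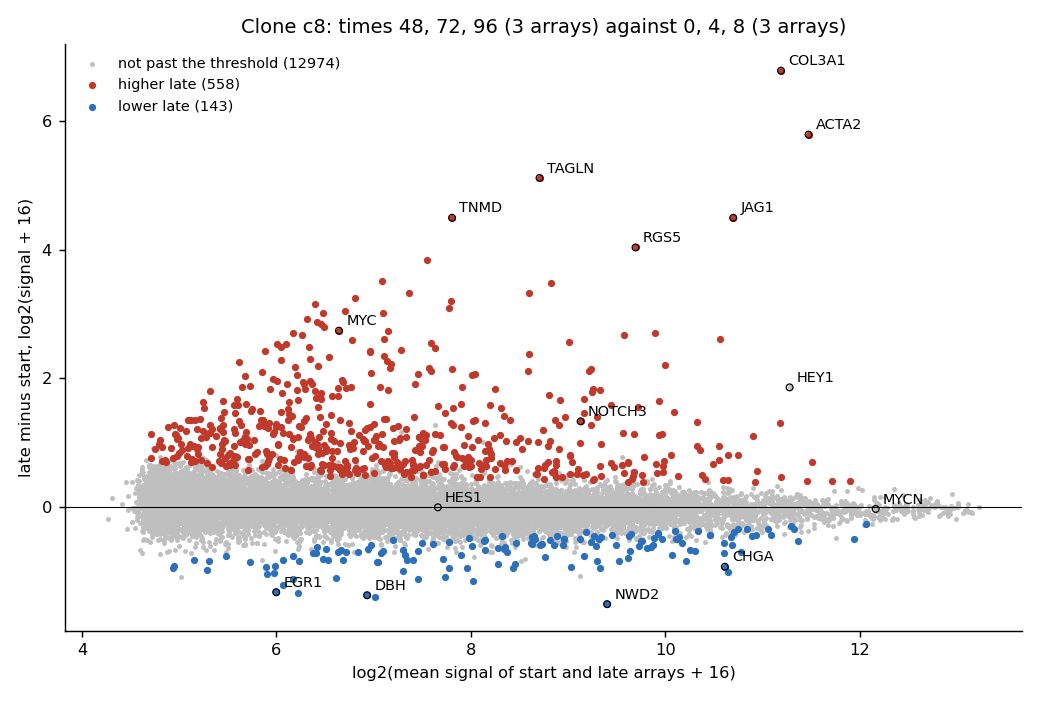
Log2 change late against start in clone c8 for 13675 genes, against log2 of their mean signal + 16. The 558 higher and 143 lower genes at a limma adjusted p under 0.05 are coloured; the largest rise is COL3A1 at 6.78 and the largest fall NWD2 at -1.50, while HES1 and MYCN lie at -0.00 and -0.03.

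The largest rise was that of COL3A1, a fibrillar collagen of vessel walls. Its signal was 10.2, 32.1 and 43.4 at times 0, 4 and 8, 658 at time 12, 2473 at time 24 and 4285, 4645 and 4922 late, a rise of 109.8-fold (log2 6.78 ± 0.23, limma adjusted p = 1.18e-08). On the log2 scale most of the climb fell between times 8 and 24. ACTA2, the actin of smooth muscle, read 92.6, 86.5 and 73.7 at the start, 128 at time 12, 1393 at time 24 and 4343, 5768 and 6624 late (55.1-fold, log2 5.79 ± 0.15, adjusted p = 1.09e-09). TAGLN, the smooth muscle protein transgelin that binds actin, went from 10.6, 7.10 and 2.10 to 465, 901 and 1026 (34.6-fold). Every late array of these 3 genes lay above every start array. TNMD, the tendon protein tenomodulin, was at 0.600 to 2 from time 0 to time 8 and at 202, 363 and 680 late (22.5-fold). RGS5, a G-protein regulator used as a pericyte marker, rose 16.4-fold from 59.5, 80.7 and 93.5 to 1170, 1398 and 2077.

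The rest of the 15 largest rises, with JAG1 already described, mixed guidance, matrix and receptor genes. SEMA5B, a semaphorin of axon guidance, rose 14.3-fold, LUM, a proteoglycan that binds collagen fibrils, 11.4-fold, and S1PR3, a receptor for sphingosine 1-phosphate, 11.2-fold. TMEM100, a membrane protein induced by BMP signalling, rose 10.1-fold, PLXDC1, a plexin-like receptor of tumour vessels, 10.0-fold, and OLFML2A, a secreted olfactomedin protein, 9.50-fold. FRAS1, a basement membrane protein, rose 9.18-fold, EPHA3, a receptor for ephrins, 8.88-fold, and MYL4, a myosin light chain, 8.50-fold. Their standard errors on the log2 scale lay between 0.13 for SEMA5B and 0.35 for MYL4. TAGLN, TNMD, SEMA5B, LUM, OLFML2A and EPHA3 were under a signal of 16 on every start array, so the added 16 sets much of their fold.

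Genes of smooth muscle contraction had the largest share of calls among the lists described here. Of 16 tested, 12 rose and the other 4 did not pass, and the median log2 change was 1.58. Besides ACTA2 and TAGLN, TPM1, a tropomyosin, rose by 2.60 ± 0.14 from 340, 406 and 491 to 2223, 2685 and 2824. MYH11, the myosin heavy chain that defines mature smooth muscle, went from 6, 4.10 and 5 to 105, 127 and 186 (log2 2.85 ± 0.19, limma adjusted p = 1.90e-06). CNN1, calponin, rose by 2.17 ± 0.16 to signals of 90 to 116. DES, the muscle filament desmin, had a change of -0.31 ± 0.25 and did not pass. The summed signal of 5 smooth muscle markers was 95.9 to 142 on the start arrays and 5007 to 7958 on the late arrays. More cells that express these genes and more RNA per cell cannot be told apart in RNA of a whole culture.

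The CArG box, the site of serum response factor in many muscle genes, was searched in the same RefSeq windows, on both strands. It was found in 1.29% of all windows and in 4 of 23 windows of the 11 smooth muscle genes in the table, those of ACTC1, ACTG2, MYLK and SMTN. ACTG2, the enteric smooth muscle actin, and MYLK, the kinase that activates smooth muscle myosin, are shown because both rose late; they were chosen after their values were seen. Each stretch runs from 120 to 61 bases before the start, with the box in capitals, at chr2:73892888-73892947 (plus strand) and chr3:123620609-123620668 (minus).
ACTG2: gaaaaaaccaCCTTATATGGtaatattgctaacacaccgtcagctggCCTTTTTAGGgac
MYLK: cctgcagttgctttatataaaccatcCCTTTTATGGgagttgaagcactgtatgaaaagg
ACTG2 read 24.1, 24.4 and 12.5 at the start, 12.2 and 41.5 at times 12 and 24 and 109, 230 and 330 late (log2 2.61 ± 0.30, limma adjusted p = 2e-04). MYLK read 70.0, 145 and 185 at the start and 522, 856 and 1216 late (log2 2.56 ± 0.31). Neither was called at times 12 and 24 against the start.

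Pericyte and fibroblast markers rose in part. Of 8 pericyte markers 5 rose, and 1 of these is NOTCH3, whose signal may include the construct. The rises were led by RGS5 and by MCAM, an adhesion molecule of vessel walls. MCAM went from 43.7, 37.7 and 39.0 to 354, 285 and 306 (log2 2.55 ± 0.13). KCNJ8, a potassium channel of pericytes, rose by 0.96 ± 0.14, and PDGFRB, the receptor that recruits pericytes, by 0.99 ± 0.15, from 24.7, 26.5 and 31.0 to 83.9, 62.7 and 64.4. CSPG4, a further defining marker, stayed below the filter at 0.700 to 6.80. Of 9 fibroblast markers 6 rose, among them COL3A1, LUM, S100A4, a calcium-binding protein (log2 2.14 ± 0.18), and THY1, a surface glycoprotein (1.13 ± 0.13). COL1A2, a chain of type I collagen, read 7.40 to 18.3 late (0.17 ± 0.22) and did not pass. COL1A1, the other chain, read 181, 158 and 183 at the start and 211, 375 and 336 late. Its change of 0.73 ± 0.18 passed (limma adjusted p = 0.0368).

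**Figure D3:**
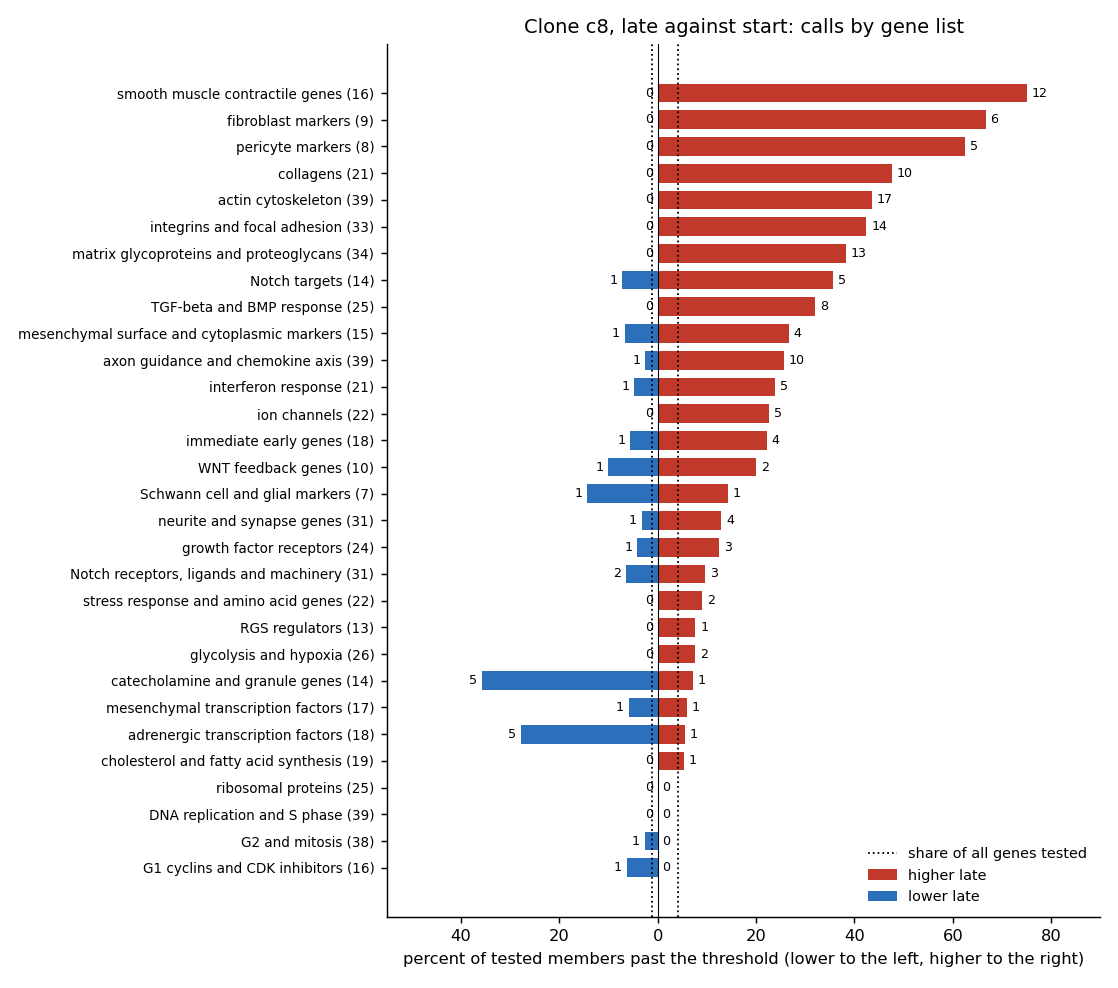
Percent of tested members of each list that were higher (right) or lower (left) late against start in clone c8 at a limma adjusted p under 0.05; list sizes are in brackets and counts stand at the bars. Dotted lines mark the share over all genes, 4.08% higher and 1.05% lower. Smooth muscle genes show 12 of 16 higher, and catecholamine and granule genes 5 of 14 lower.

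Matrix genes beyond these were also among the risen. Of 21 collagens 10 rose, with a median change of 0.71, including the basement membrane chains COL4A1 (327, 409.7 and 513 at the start, 1248, 1062 and 1404 late; log2 1.55 ± 0.16) and COL4A2 (0.96 ± 0.10) and the microfibril chain COL6A1 (1.35 ± 0.13). Of 34 matrix glycoproteins and proteoglycans 13 rose. FN1, fibronectin, went from 172, 247 and 297 to 2034, 1341 and 1510 (log2 2.70 ± 0.19), LAMC1, a laminin chain, rose by 1.47 ± 0.10, and TNC, tenascin C, by 2.12 ± 0.13. The genes most alike to COL3A1 over the 8 arrays were S100A4 (Pearson r = 0.992), COL4A2, TPM1 and ID4 (0.991 each) and ANKRD6 (0.989).

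Some genes of cell adhesion and the actin cytoskeleton also rose in clone c8. Of 33 integrin and focal adhesion genes 14 rose, led by ITGA1, a collagen-binding integrin, which read 205, 207 and 203 at the start and 1020, 754 and 1085 late (log2 2.12 ± 0.14). FERMT2, which activates integrins, rose by 1.13 ± 0.12, VCL, vinculin, by 1.14 ± 0.14, and TGFB1I1, a focal adhesion adaptor, by 1.19 ± 0.15. With the mean of each gene's probe sets 9 of the 33 rose. Of 39 actin cytoskeleton genes 17 rose, among them PDLIM5 (1.84 ± 0.15), CALD1, caldesmon (1.31 ± 0.11), and ACTN1, alpha-actinin (1.59 ± 0.16). That count was 11 without the array of time 96, and 8 with the mean of each gene's probe sets.

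Guidance, chemokine and growth factor genes moved less uniformly. Their counts stand beside 4.08% of all genes that rose and 1.05% that fell. Of 39 axon guidance and chemokine genes 10 rose and 1 fell; EFNB2, an ephrin of arterial vessels, rose by 1.66 ± 0.27, PLXND1, a semaphorin receptor, by 1.09 ± 0.13, and SLIT3, a repulsive guidance cue, by 0.86 ± 0.14. With no intensity filter 6 of the 39 rose. CXCL12, the ligand of CXCR4, read 112 at time 0, 384 and 470 at times 4 and 8 and 659, 818 and 904 late. Its change of 1.46 ± 0.37, which was 0.87 without the array of time 0, passed narrowly (limma adjusted p = 0.0430) and did not pass without the array of time 48 (1.58), 72 (1.43) or 96 (1.36). Of 25 TGF-beta and BMP response genes 8 rose, among them the BMP target repressors ID4 (90.6, 119 and 117 to 711, 588 and 602; log2 2.38 ± 0.13) and ID3 (1.84 ± 0.18) and the receptor TGFBR2 (1.91 ± 0.23). The count of 8 was 5 without the array of time 0, 4 or 96 and with median centring. Of 10 WNT feedback genes 2 rose, the inhibitors SFRP1 (1.15 ± 0.11) and DKK1 (1.14 ± 0.14), and 1 fell, KREMEN1, a receptor for DKK1 (-0.84 ± 0.15).

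Among 21 interferon response genes 5 rose and 1 fell, where 4.08% of all genes rose and 1.05% fell. The rise was led by the membrane proteins IFITM2, from 186, 156 and 231 to 1027, 1380 and 1517 (6.39-fold, log2 2.67 ± 0.16), and IFITM3 (1.65 ± 0.14), which block virus entry; the IFITM genes are close copies, and probe sets may read more than 1 of them. IFIT1, an RNA-binding antiviral protein, rose by 1.35 ± 0.20 to signals of only 27.6 to 42.1. Of 15 mesenchymal surface and cytoplasmic markers 4 rose and 1 fell, with LGALS1, galectin 1 (2.06 ± 0.24), and CDH11, a mesenchymal cadherin (1.68 ± 0.25), among the risen. Mesenchymal transcription factors had only 1 rise and 1 fall among 17, beside the same shares of all genes. SNAI2, the repressor Slug, read 385 at time 0, 656 and 743 at times 4 and 8 and 717 to 888 late, and its change of 0.47 ± 0.20 did not pass. VIM, vimentin, was bright throughout at 3426 to 4903 and had a change of 0.29 ± 0.08 (limma adjusted p = 0.0544), which passed without the array of time 8 (0.34).

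The remaining lists held 0 to 5 rises each, beside 4.08% of all genes that rose and 1.05% that fell. Among them the share of rises was largest for ion channel and immediate early genes. Of 22 ion channel genes 5 rose, led by KCNMA1, a calcium-activated potassium channel (1.97 ± 0.23), and 3 with the stricter filter at the 60th percentile. Immediate early genes had 4 rises and 1 fall among 18, with SPRY2, a growth factor feedback inhibitor, up by 1.299 ± 0.15. Neurite and synapse genes had 4 rises and 1 fall among 31, among them the growth cone proteins GAP43 (1.69 ± 0.20) and STMN2 (1.37 ± 0.20), and 2 rises without the array of time 4. Growth factor receptors had 3 rises and 1 fall among 24, Schwann cell and glial markers 1 and 1 among 7, stress and amino acid genes 2 rises among 22, glycolysis and hypoxia genes 2 among 26, RGS regulators 1 among 13, and cholesterol and fatty acid synthesis 1 among 19. CRYAB, a small heat shock protein, was the risen member of the glial list (2.10 ± 0.25). No ribosomal protein gene of 25 passed, and their median change was 0.01.

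The falls were smaller, and several were of sympathetic genes. DBH, the enzyme that makes noradrenaline, read 245, 121 and 121 at the start, 63.3 and 66.2 at times 12 and 24 and 51.1, 56.4 and 42.9 late (log2 -1.37 ± 0.22, limma adjusted p = 0.00267). SLC6A2, the noradrenaline transporter, went from 209, 313 and 303 to 141, 124 and 96.5 (-1.09 ± 0.17). CHGA, chromogranin A of the secretory granule, went from 1988, 2013 and 2082 to 885, 1297 and 1041 (-0.92 ± 0.12). All late arrays of these genes lay below all start arrays. Of 14 catecholamine and granule genes 5 fell and 1 rose, beside 1.05% of all genes that fell and 4.08% that rose. The risen gene was SCG2, a granin (2.09 ± 0.21). The count of falls was 3 without the array of time 0, 4, 48 or 72, and 2 with time 0 alone as the start.

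Of 18 adrenergic transcription factors 5 fell and 1 rose, beside 1.05% of all genes that fell and 4.08% that rose. With the mean of each gene's probe sets 3 fell. PHOX2A, which specifies noradrenergic neurons, read 1442, 1458 and 1598 at the start and 737, 1031 and 756 late (log2 -0.84 ± 0.13, limma adjusted p = 0.00165). INSM1 (-0.69 ± 0.11), DACH1 (-0.78 ± 0.13) and HAND1 (-0.75 ± 0.13), further regulators of this lineage, fell by similar amounts. GATA3, a core regulator, stayed at 3045 to 3934 on the 8 arrays (-0.25 ± 0.08, adjusted p = 0.0992), and passed without the array of time 72 (-0.29). HAND2 had a change of 0.05 ± 0.14 and MYCN, on its brightest probe set, of -0.03 ± 0.08, and neither passed. The MYCN probe sets next in brightness had changes of -0.46 ± 0.17 and -0.60 ± 0.24. Its remaining probe sets were dim, with changes between -0.21 and 0.22. GATA2 had a change of 0.72 ± 0.19 (adjusted p = 0.0475) that did not pass without any 1 of the arrays of times 0, 4, 48, 72 and 96 (0.47 to 0.83).

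The largest fall was that of NWD2, a NACHT and WD repeat protein, from 913, 1046 and 993 to 386, 330 and 297 (log2 -1.50 ± 0.12, limma adjusted p = 1e-05). RHBDL3, a rhomboid protease, fell by 1.40 ± 0.22 and MAMDC2, a secreted proteoglycan, by 1.33 ± 0.22, both with their highest signal at time 8. EGR1, the immediate early transcription factor, fell by 1.32 ± 0.19 from 87.8, 82.4 and 55.5 to 17, 29.4 and 15.4, and CALB1, a calcium-binding protein, by 1.20 ± 0.23. CALB1 did not pass without the array of time 96 (-1.10). F3, tissue factor, fell by 1.15 ± 0.15, NPTX1, a neuronal pentraxin, by 1.11 ± 0.16 and SEL1L3 by 1.11 ± 0.20. The 15 largest falls also held DLK1, SLC6A2 and DBH, the zinc finger gene ZNF382 (-1.04 ± 0.16), the cadherin CDH7 (-1.02 ± 0.19), the neuropeptide galanin GAL (-1.01 ± 0.12) and the receptor FGFR2 (-0.99 ± 0.15). Galanin was the brightest of them, with 2496, 2051 and 1835 at the start and 1053, 1141 and 933 late.

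Many genes of clone c8 already differed from the start at times 12 and 24. Against the same start arrays, which both comparisons share, 813 genes (5.95%) differed at times 12 and 24 by limma, 613 higher (4.48%) and 200 lower (1.46%), and 306 and 8 of them by 2-fold or more. The count was 445 without the array of time 4, 403 without that of time 12 and 522 when all 17 arrays gave the spread. The largest rises were COL3A1 (log2 4.94), JAG1 (4.22), LOC101927040 (3.74), MYC (3.72) and PLXDC1 (3.64), and the largest falls EGR1 (-1.28), NPTX1 (-1.16), CALB1 (-1.16), ANHX (-1.15) and NWD2 (-1.12). The median change of the 279 genes risen 2-fold or more was -0.11, -0.01 and 0.14 at times 0, 4 and 8, 1.11 at time 12, 1.53 at time 24 and 1.44, 1.39 and 1.55 late. At time 12, 193 of them had 50% or more of their own late change, and at time 24, 252 had. By time 4, 8 were 2-fold above time 0, and 26 by time 8, while 30 had under 10% of their late change at time 12. Because the start group includes times 4 and 8, genes already high then, such as HEY1, were less likely to be called. The counts and medians at times 4 and 8 are thus partly set by how the 279 genes were chosen.

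Few genes were called between times 12 and 24 and the late times. Late against mid, 29 genes (0.212%) differed by limma, while 1435 had an unadjusted p under 0.05 where 684 would be 5% of the genes. Of the 29, 17 were higher (0.124%) and 12 lower (0.0878%), and with median centring 14 were higher and 17 lower. This small count depended on single arrays: it was 73 without that of time 0, 13 without time 4, 5 without time 12, 106 without time 24, 1 without time 72 and 2 without time 96. The rises were led by TNMD (log2 3.81), ACTA2 (3.61), TAGLN (3.09), MYL4 (2.89) and MYH11 (2.66). MYH11 read 2.10 and 15.8 at times 12 and 24 and MYL4 37.9 and 26.0, and neither was called mid against start. Of the smooth muscle list 6 of 16 were called mid against start and 4 late against mid, with a list median of 0.48 at time 12, 0.83 at time 24 and 1.20, 1.76 and 2.08 at the late times.

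A second group was high at times 12 and 24 and came down. CHRNA9, a subunit of the nicotinic acetylcholine receptor, read 24.8, 42.2 and 69.0 at the start, 239 and 313 at times 12 and 24 and 76.7, 33.6 and 41.3 late (late against mid log2 -2.18, limma adjusted p = 0.0146). PMEL, a melanosome protein, read 133, 119 and 175, then 551 and 873, then 248, 217 and 160 (-1.68). The late signals of both overlapped those of the start. PLXNC1, a semaphorin receptor (-1.25), MCHR1, a receptor for melanin-concentrating hormone (-1.16), and PCDH8, a protocadherin (-1.12), completed the 5 largest falls after time 24. PDGFRB followed the same course, with 180 and 146 at times 12 and 24 (-1.06, adjusted p = 0.0276).

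Genes of cell division were lowest at time 12 in clone c8. Of 38 G2 and mitosis genes 25 fell at times 12 and 24 against the start, beside 1.46% of all genes, with a list median of -0.69. Late against start, 1 of the 38 was lower, beside 1.05% of all genes. In clone c6 the same list was lowest at time 24, with a median of -1.25 from that clone's start mean. MKI67, the proliferation marker, read 573, 737 and 652 at the start, 287 at time 12, 447 at time 24 and 578, 434 and 484 late (mid log2 -0.83, limma adjusted p = 0.0164; late -0.38 ± 0.13, adjusted p = 0.145). NUF2, a kinetochore protein, read 1776, 2051 and 1799, then 882 and 1232, then 1417, 1220 and 1459 (mid -0.83). ASPM (-0.89) and CENPF (-0.77), proteins of the mitotic spindle and kinetochore, were also called. The count of 25 rested on few arrays: it was 1 without that of time 12, 3 without time 4, 12 without time 8 and 16 without time 96, and 1 when all 17 arrays gave the spread.

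Of 39 DNA replication and S phase genes 7 fell at times 12 and 24, beside 1.46% of all genes. Among them were PRIM1, a primase subunit (-0.46), and RRM1, of ribonucleotide reductase (-0.47). That count was 0 without the array of time 4 or of time 12, and 2 without that of time 0. The list median was 0.14 at time 0, -0.59 at time 12, -0.18 at time 24 and between -0.12 and 0.10 late, and none of the 39 passed late against start. G1 cyclins and inhibitors had 1 fall among 16 late, beside 1.05% of all genes. CCND1, cyclin D1, read 954 to 1370 over the 8 arrays with a change of -0.11 ± 0.12 that did not pass.

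**Figure D4:**
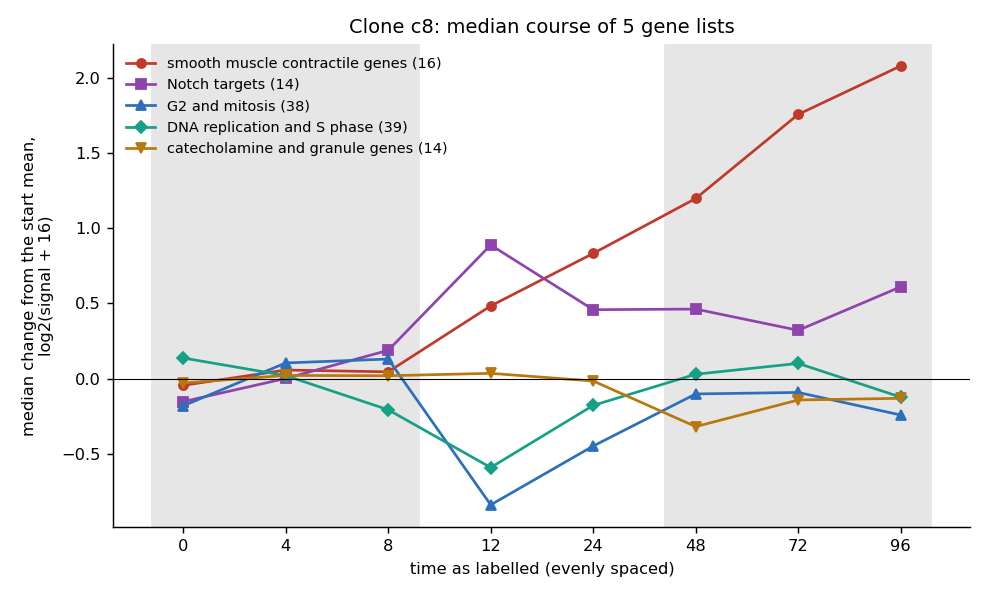
Median change from the start mean, log2(signal + 16), of 5 gene lists on the 8 arrays of clone c8 at the labelled times, evenly spaced; the number of genes tested is in brackets. The smooth muscle list climbs from 0.48 at time 12 to 2.08 at time 96, and the G2 and mitosis list dips to -0.84 at time 12 and lies between -0.24 and -0.09 late.

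Clone c6, which shares no array with clone c8, gave a second look at these genes. Late against start, 851 genes (6.22%) differed in clone c6 by limma, 615 higher (4.5%) and 236 lower (1.73%); the count was 542 without its array of time 72 and 517 without that of time 96. Of the 558 genes risen in clone c8, 548 had the same sign in clone c6, and 385 were called higher there, 69.0% of the calls of clone c8 and 62.6% of those of clone c6. Their median change was 1.003 in clone c8 and 1.02 in clone c6. Of the 143 fallen, 127 had the same sign and 47 were called lower, 32.9% and 19.9% of the calls, with medians of -0.64 and -0.38. Over all genes 59.2% had the same sign. COL3A1 changed by 7.17 in clone c6 and ACTA2 by 6.18, beside 6.78 and 5.79 in clone c8. CHGA had a change of -0.92 in clone c8 and -0.10 in clone c6, and the difference between them did not pass (-0.82, limma adjusted p = 0.344).

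By value, clone c8 was the faster of the clones. Of the genes risen 2-fold and called in both, 227 in number, the median had reached 80.8% of its own late change at time 12 in clone c8 and 27.2% in clone c6, and 106% and 70.1% at time 24. The share was higher in clone c8 for 199 of the 227 at time 12 and for 186 at time 24. S1PR3, for example, went from 46.8 at time 0 to 453 at time 12 and 818 at time 24 in clone c8, and from 61.4 to 128 and 499 in clone c6. For the 9 genes fallen 2-fold in both the medians were 77.2% and 38.5% at time 12 and 84.6% and 100% at time 24. With 1 array per clone and time these shares have no replicate error.

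**Figure D5:**
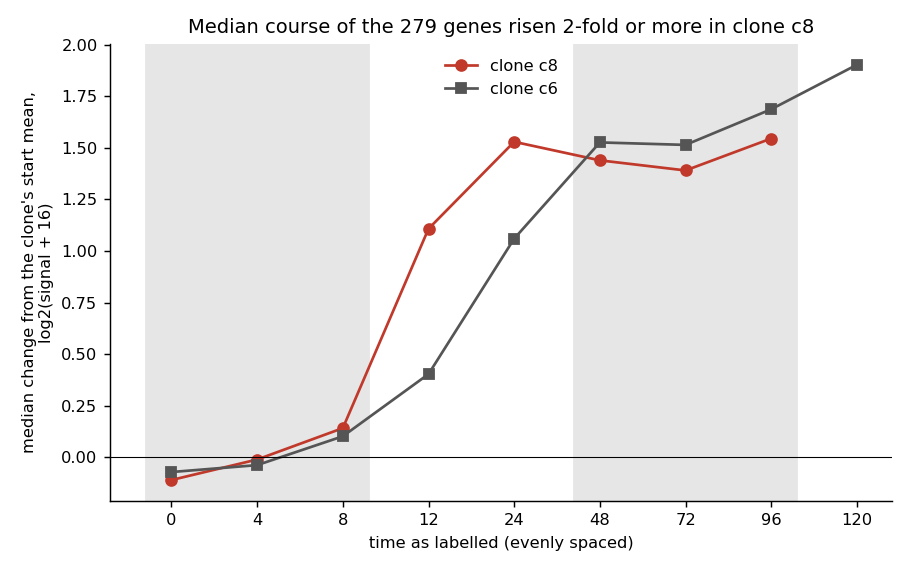
Median change from each clone's own start mean, log2(signal + 16), of the 279 genes risen 2-fold or more late in clone c8, at the labelled times at even spacing. Clone c8 reaches 1.11 at time 12 and 1.53 at time 24, where clone c6 stands at 0.40 and 1.06, and clone c6 goes on to 1.90 at time 120. The genes were chosen on the late and start arrays of clone c8.

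The difference in pace was not called gene by gene in the planned fit. By limma, 0 genes differed between the clones in their change to times 12 and 24, and the lowest adjusted p was 0.213. An unadjusted p under 0.05 was found for 671 genes, where 684 would be expected by chance, so that count held no excess. With each time point as a block, which takes out what both clones share at a time, 23 genes differed, 22 of them with the larger change in clone c8. They included FAM43A (2.46), TNC (2.08), EPHA3 (1.99), SORBS2 (1.95), SEMA5B (1.90), PLXDC1 (1.88), PMEL (1.87), FRAS1 (1.63), S1PR3 (1.42), SCG2 (1.38) and PLXND1 (1.08). A larger change need not be the same rise reached sooner. FAM43A and SORBS2 were not called late against start in clone c6, while TNC, EPHA3, SEMA5B, PLXDC1, PMEL, FRAS1, S1PR3 and SCG2 were. FAM43A had a start mean of 201 in clone c6 and 37.5 in clone c8. SORBS2 read 17.4 and 19.2 at times 12 and 24 in clone c6, from a start mean of 20.3. Without the block, 10 genes differed at time 12 alone, and the count of 0 became 66 when the array of clone c6 at time 24 was left out and 11 without that of clone c8 at time 12. TNC read 460 and 791 at times 12 and 24 in clone c8 and 80.2 and 141 in clone c6, and fell in clone c8 to 285 to 316 late.

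For the late change 0 genes differed between the clones by limma, although 1219 had an unadjusted p under 0.05 where 684 would be 5% of the genes; the lowest adjusted p was 0.0712. The 3 genes of smallest p were HTR3A, RND1 and CLSTN2. HTR3A, a serotonin-gated channel, read 59.8, 55.1 and 44.4 at the start and 73, 90 and 69.9 late in clone c8. Its change of 0.44 there did not pass. In clone c6 it had a change of -0.83, from a start mean of 116 to a late mean of 58.2. RND1, a small GTPase, went from 2.60 to 4.20 at the start to 20.2 to 34.1 late in clone c8 (1.14 ± 0.18) and had a change of -0.43 in clone c6. Its signal in clone c6 was dim, with 10.9, 10 and 15.9 at the start and 5.6, 3.2 and 5.9 late. The change there did not pass (limma adjusted p = 0.297). CLSTN2, a synaptic calsyntenin, had a change of -0.46 in clone c8 and -1.79 in clone c6. The start levels were unlike, with means of 43.1 in clone c8 and 168 in clone c6, and the late means were 26.7 and 37.1. With each time point as a block 29 genes differed, 13 with the higher change in clone c8 and 16 with the lower, among them FAM43A (1.54), CLSTN2 (1.34), HTR3A (1.27), MYC (-1.25) and SPRY2 (-1.22). Without the block, the count of 0 became 6 when the array of clone c8 at time 0 was left out, 2 without that of time 8 and 1 without that of clone c6 at time 0.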

How the data were processed

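Total RNA of IMR32 clones was labelled with biotin and hybridised to Affymetrix arrays, per the labels. The authors deposited 1 linear intensity per probe set and array; MAS5 and GCOS are the tools in the submitters' processing notes, and neither a version nor a genome build is given in the sources used here. Every array had the same 2% trimmed mean, 100.01. Detection calls were left aside. How many arrays there are sets the precision.

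A single gene symbol was listed for 41097 of 54675 probe sets, several for 1801 and none for 11777; 41043 were found in a RefSeq table (GRCh38.p14), which changed 0 symbols. Intensities were transformed as log2(value + 16), which understates changes of dim genes, with no further normalization. The probe set of highest mean stood for a gene, and 13675 of 19775 genes whose mean log2 value reached the 40th percentile (4.68) were tested. Late against start used 6 arrays of clone c8 (4 residual degrees of freedom), the mid comparisons its 8 arrays (5), and the clone differences 12 (8) and 16 (10). Models were fitted with limma (version 3.58.1, R version 4.3.3), with moderated variances that follow intensity and Benjamini-Hochberg adjusted p-values. An exact permutation test of 3 arrays against 3 cannot go below 0.1. At most 1.42% of values were equal between any 2 arrays, so all were kept.

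The clone, the phases and the gene lists were chosen with earlier results of these data known, so lists are described by counts and medians beside all genes. Of these lists, endothelial (2 tested) and immune markers (3) held no call. Genes named are the 15 largest rises and 15 largest falls late against start whose arrays do not overlap, the 5 largest each way for the mid comparisons, the 3 of smallest p for the clone differences, up to 4 members of smallest p per list, the 5 genes most alike to HEY1 and COL3A1, and a list of genes fixed by name. ACTG2, MYLK, DTX1, COL1A1 and the defining markers DES, COL1A2 and CSPG4 lie outside this rule and were chosen after their values were seen. A further gene is not reported here. On simulated arrays 70% of 2-fold and 96% of 4-fold changes were recovered late against start, with 4 false calls. For the late clone difference the shares were 58% and 91%. The simulated arrays were drawn independently around a common mean for each gene. They held no drift between the times of a group, so these figures may not carry over to the real arrays. Alternatives covered the pseudocount, normalization, filter, probe set rule, trend, fit, time point as a block and each array left out.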

Additional observations from a re-analysis of the deposited data

Results flagged for a closer look

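With each time point as a block, the change to the late times differed between the clones at an adjusted p under 0.05 for these genes named above, given as clone c8 minus clone c6 on the log2 scale: FAM43A 1.54, CLSTN2 1.34, HTR3A 1.27, SPRY2 -1.22 and MYC -1.25. In the planned fit without that block none of them passed. Without the block, HTR3A and CLSTN2 passed with a pseudocount of 64, and HTR3A also without a trend and without the array of clone c8 at time 0, and CLSTN2 without that of clone c8 at time 8.

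The change to times 12 and 24 differed in the same way for FAM43A (2.46), TNC (2.08), EPHA3 (1.99), SORBS2 (1.95), SEMA5B (1.90), PLXDC1 (1.88), PMEL (1.87), FRAS1 (1.63), S1PR3 (1.42), SCG2 (1.38) and PLXND1 (1.08), all larger in clone c8. In the planned fit without the block none of them passed. FAM43A and SORBS2 were not called late against start in clone c6, so their difference need not be one of pace. Without the block, S1PR3 and PLXDC1 passed at time 12 alone, FAM43A and SEMA5B without the array of clone c8 at time 12, and FAM43A, TNC, EPHA3, SORBS2, SEMA5B, PLXDC1, FRAS1 and S1PR3 without that of clone c6 at time 24.

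In HTR3A and RND1 the late arrays lay on opposite sides of the start arrays in the clones. HTR3A had a change of 0.44 in clone c8 and -0.83 in clone c6, and RND1 of 1.14 and -0.43. Each was called in 1 clone only. HTR3A did not pass in clone c8 (limma adjusted p = 0.131) and RND1 did not pass in clone c6 (0.297). The start and late signals of RND1 in clone c6 were all under 16. That the arrays do not overlap in opposite directions is a description and was not itself tested; the planned fit of the difference did not pass for either gene (limma adjusted p = 0.0712 for each). HTR3A passed with the block (adjusted p = 0.0103), and RND1 passed with the mean of probe sets (0.0341) and without a trend (0.0223).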

How the results depend on the processing

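Counts are genes at a limma adjusted p under 0.05, and the cause of their shifts was not tested. Late against start (701) was 447 to 649 with 1 array left out and 492 to 712 under the other settings. Mid against start (813) was 403 to 885 with 1 array left out and 522 with all 17 arrays in 1 fit. Late against mid (29) was 1 to 106 with 1 array left out, 8 and 50 with pseudocounts of 1 and 64, 1 with no filter, 15 with the mean of probe sets, 15 without a trend and 11 with all 17 arrays. In clone c6 (851) the count was 517 to 890 with 1 array left out. The late clone difference (0) was 0 to 6 with 1 array left out, 2 with a pseudocount of 64, 1 with the mean of probe sets, 2 without a trend and 29 with the time point as a block. The mid clone difference (0) was 0 to 66 with 1 array left out, 1 with the mean of probe sets, 10 at time 12 alone and 23 with the block.

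Changes near 0 turned in direction. With 1 array left out, HES1 ranged from -1.19 to 0.62, CDKN1C from -0.98 to 0.57, CXCR4 from -0.86 to 0.90, CCND1 from -0.17 to 0.016, MYCN from -0.073 to 0.021, HAND2 from -0.038 to 0.13, CHRNA9 from -0.14 to 0.40 and COL1A2 from -0.004847 to 0.33. HES1 was 0.22 with a pseudocount of 1, 0.015 with quantile normalization and 2.37 against time 0 alone, and CDKN1C was 1.80 against time 0. HAND2 was -0.0008178 with median centring and -0.11 against time 0.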
